A study of Mus musculus with 17 samples.

Results

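The Zfp36 family consists of Zfp36 (ENSMUSG00000044786), Zfp36l1 (ENSMUSG00000021127) and Zfp36l2 (ENSMUSG00000045817), and its members were taken as the rows of the count table whose Ensembl identifiers map to these symbols, 3 of 55471 genes. The data were gene counts of total RNA from the hippocampus of C57BL/6 mice aged 3 to 6 months, in 17 libraries of 6 groups. CBP-ifKO mice combined floxed Crebbp alleles with creERT2, a tamoxifen-activated Cre recombinase driven by the Camk2a promoter, which is active in excitatory neurons of the forebrain, so that these cells of the adult make a truncated CBP while the other cells of the tissue keep the gene. Both genotypes had received tamoxifen 5 times. The methods describe the Control mice as littermates without creERT2, whereas the labels name Camk2a_creERT2 for every library. In each genotype, Sal mice were not kindled and were given saline, PTZ0 mice were kindled, that is, given repeated doses of the GABA-A receptor blocker and convulsant pentylenetetrazole (PTZ), and received saline on the last day, and PTZ45 mice were kindled and were given 45 mg/kg PTZ on the last day, with the tissue taken 45 min later. There were 2 libraries in Control PTZ45 and 3 in each of the other groups. A further column of counts, named like those of Control PTZ45, matched no sample and was not used.

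Zfp36 family proteins carry a pair of CCCH zinc fingers that bind AU-rich elements in the 3′ untranslated region of mRNAs, and they recruit the CCR4-NOT deadenylase, which shortens the poly(A) tail and so starts decay. Zfp36, also called tristetraprolin, is an immediate-early gene in many cells, and its own mRNA and those of several cytokines and immediate-early genes are among its targets. Zfp36l1 and Zfp36l2, also called BRF1 and BRF2, bind the same kind of element and are known for their roles in cell differentiation. Phosphorylation by p38 MAPK-activated kinases and binding of 14-3-3 proteins reduce the activity of these proteins.

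All 3 genes lie on the minus strand of GRCm38. Zfp36 spans chr7:28376784-28380253 and has 3470 exonic bases, Zfp36l1 spans chr12:80107754-80113013 with 2990 exonic bases, and Zfp36l2 spans chr17:84183931-84187947 with 3530 exonic bases. AU-rich elements of the members themselves are shown first, because such elements are what the proteins bind and the Zfp36 mRNA is known to be bound by its own product. The 3′ untranslated region of the longest coding transcript held 3 copies of UAUUUAU in Zfp36, 3 in Zfp36l1 and 3 in Zfp36l2, and in each gene 1 copy was part of the longer element UUAUUUAUU. Among regions within 20% of the same length, 1.23% held at least as many UAUUUAU copies as Zfp36, 4.22% as many as Zfp36l1 and 4.21% as many as Zfp36l2. The copies within UUAUUUAUU are given as mRNA with 11 bases on either side, the 7 bases UAUUUAU in capitals, for the members and for Fos, Ptgs2 and Dusp1, known targets whose counts are described further on. The sites lie at chr7:28376951-28376979, chr12:80108167-80108195 and chr17:84184914-84184942 for the members, and at chr12:85477103-85477131 (plus strand), chr1:150105790-150105818 (plus strand) and chr17:26506159-26506187 (minus strand) for Fos, Ptgs2 and the first site of Dusp1. A match is a description of letters, not evidence of binding.
Zfp36: uaugacgacuuUAUUUAUuguauuaagau
Zfp36l1: aacuguuggauUAUUUAUuuuagaaauuc
Zfp36l2: acuauuuaacuUAUUUAUuaucuugugaa
Fos: uguuuucaauuUAUUUAUuaagauggauu
Ptgs2: cugaccauauuUAUUUAUuuaugugaaga
Dusp1: gagcugguccuUAUUUAUuuaacaccccc

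Promoter windows of 300 bases, from 250 bases before to 50 after the RefSeq start site in GRCm38.p6, are shown for Zfp36 and Zfp36l1, the 2 members for which a RefSeq window was at hand. They were searched on both strands for the cAMP response element CRE (TGACGTCA), its 5-base core TGACG (which every CRE holds), AP-1 (TGANTCA), EGR (GCGNGGGCG) and the CArG box of serum response factor. Capitals mark the matches. The Zfp36 window (chr7:28379179-28379478, minus strand), which lies inside the Ensembl span of the gene, held an EGR match, GCGGGGGCG, that began 105 bases before the start site, and a CArG box, CCATAAAAGG, that began 58 bases before it. The Zfp36l1 window (chr12:80112964-80113263, minus strand) held an AP-1 match, TGATTCA, 129 bases before its start site. Of 32851 windows of the same length, 5.55% held the EGR letters, 1.63% a CArG box, 7.81% the AP-1 letters, 1.79% the CRE and 20.8% its core, and neither window held a CRE or its core.
Zfp36: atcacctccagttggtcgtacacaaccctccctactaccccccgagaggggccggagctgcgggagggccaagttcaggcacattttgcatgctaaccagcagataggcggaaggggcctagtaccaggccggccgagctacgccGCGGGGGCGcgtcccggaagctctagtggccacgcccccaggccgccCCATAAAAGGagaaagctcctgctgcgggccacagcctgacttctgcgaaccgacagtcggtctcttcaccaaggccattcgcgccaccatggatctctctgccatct
Zfp36l1: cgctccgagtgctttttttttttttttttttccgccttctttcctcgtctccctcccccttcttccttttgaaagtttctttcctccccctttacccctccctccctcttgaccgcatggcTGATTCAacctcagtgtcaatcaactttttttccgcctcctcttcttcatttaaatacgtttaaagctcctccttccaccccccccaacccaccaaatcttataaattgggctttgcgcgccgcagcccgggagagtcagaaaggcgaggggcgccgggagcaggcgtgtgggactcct

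The libraries held 5831992 to 18735643 counts. Crebbp, the targeted gene, had a mean of 2169 normalized counts (SD 201, n = 8) over the Controls, against 1214 (SD 94.95, n = 9) over the CBP-ifKOs, without overlap. Esr1, the source of the hormone-binding part of creERT2, had 57.6 (SD 10.9, n = 8) and 818 (SD 90.5, n = 9). Markers of hippocampal neurons and glia were detected in every group. Summed markers of choroid plexus epithelium ran from 411 to 44060 normalized counts over the libraries and were 736 and 868 in Control PTZ45, and their part in the levels of the family was not tested. By the labels, Control Sal and Control PTZ0 were sequenced on lane 3, Control PTZ45 and CBP-ifKO Sal on lane 4, and CBP-ifKO PTZ0 and PTZ45 on lane 5, so in Controls the lane and the last PTZ dose cannot be told apart. The genotypes were on different lanes in every treatment, and CBP-ifKO Sal was on another lane than the other CBP-ifKO groups. In those comparisons, too, lane cannot be told apart from genotype or treatment. In whole tissue, fewer cells of a type and less RNA per cell cannot be told apart either.

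The first question was how the family's transcripts respond to PTZ in kindled Controls. Zfp36 rose 4.59-fold over Sal and was the member with the largest change in this comparison, while Zfp36l1 and Zfp36l2 were 1.44 and 1.60 times their Sal levels and were not called. Against PTZ0, Zfp36 and Zfp36l1 were called higher, at 3.87-fold and 1.92-fold. The Zfp36l1 call did not hold when any single library of that comparison was left out. In CBP-ifKOs no member was called in any comparison of treatments.

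Zfp36 was the scarcest member. Its raw counts ran from 5 to 101 per library, so that its values carry more counting error than those of its paralogues. In normalized counts, the Control Sal libraries held 17.1, 16.01 and 16.3, the Control PTZ0 libraries 23.7, 17.6 and 17.1, and the Control PTZ45 libraries 89.3 and 61.9. Both Control PTZ45 libraries lay above all the others, of which the highest, CBP-ifKO Sal replicate 2, held 31.1. This order was found in 4.3% of 17367 genes. The CBP-ifKO Sal libraries held 26.3, 31.1 and 11.8, the CBP-ifKO PTZ0 libraries 6.09, 16.2 and 25.2, and the CBP-ifKO PTZ45 libraries 13.7, 31.0 and 23.6. These 9 libraries overlapped across the treatments. By mean, Control PTZ45 (75.6 ± 19.4, SD, n = 2) was followed by CBP-ifKO Sal (23.1 ± 10.04, SD, n = 3), CBP-ifKO PTZ45 (22.8 ± 8.69, SD, n = 3), Control PTZ0 (19.5 ± 3.67, SD, n = 3), Control Sal (16.5 ± 0.594, SD, n = 3) and CBP-ifKO PTZ0 (15.8 ± 9.58, SD, n = 3). Only the first step in this order was wider than the spread of the libraries.

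**Figure D1:**
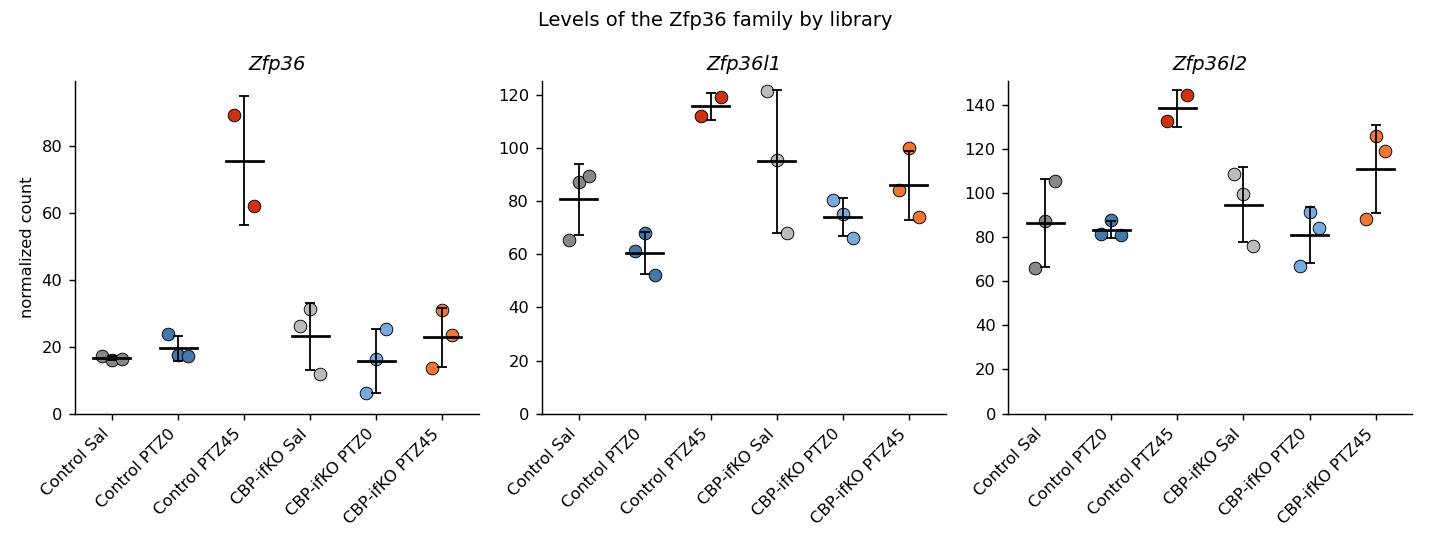
Normalized counts (y axes, linear from 0) of Zfp36, Zfp36l1 and Zfp36l2 in the 6 groups; points are libraries, horizontal bars group means and error bars SD. The 2 Control PTZ45 libraries of Zfp36, at 61.9 and 89.3, stand above every other library, whereas for Zfp36l1 they lie within the range of CBP-ifKO Sal.

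In DESeq2 the log2 fold change of Zfp36 from Sal to PTZ45 in Controls was 2.20 (SE 0.39, adjusted p 2.698e-06), and from PTZ0 to PTZ45 it was 1.95 (SE 0.38, adjusted p 4.248e-05). The share of genes called higher was 0.939% of 17367 over Sal and 1.18% of 17982 over PTZ0. Zfp36 ranked 30th by log2 fold change among the 163 genes called higher over Sal and 38th among the 213 called higher over PTZ0. Both values used the same PTZ45 libraries. Without Control PTZ45 replicate 1, which leaves 1 PTZ45 library, DESeq2 gave Zfp36 a log2 fold change of 1.91 over Sal (p 0.00161) and 1.66 over PTZ0 (p 0.00477) and no adjusted p. The antisense gene Gm44710, which overlaps Zfp36 on the other strand, had 0 to 4 counts per library. Summed mural cell markers were lower in Control PTZ45 (2357 to 2493) than in Control Sal (2520 to 2733) and PTZ0 (2620 to 2693). Of these markers, Vtn was called lower over PTZ0 (-0.38, adjusted p 0.0424 by DESeq2). Summed interneuron markers were higher (6659 to 6799, against 6570 to 6620 and 6438 to 6628). The part of these markers in the values of the family was not tested.

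Against a group of the same lane, Control PTZ45 was also higher: over CBP-ifKO Sal, from which it differs in genotype as well as treatment, the log2 fold change of Zfp36 was 1.78 in DESeq2 (SE 0.43, adjusted p 0.00253), where 3.05% of 15483 genes were called higher. This call was lost without CBP-ifKO Sal replicate 3 (1.43, adjusted p 0.0559), without Control PTZ45 replicate 1 (1.48, adjusted p 0.453) and without Control PTZ45 replicate 2 (2.01, adjusted p 0.0930). In this comparison 2 of 4 markers of CA1 pyramidal cells were also called higher, and of 5 markers of dentate granule cells C1ql2 was called higher (1.34) and Lct lower (-0.97), and their part in the result was not tested.

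Zfp36l1 showed a smaller difference. Its Control Sal libraries held 65.5, 87.4 and 89.5 normalized counts, its Control PTZ0 libraries 61.4, 67.9 and 52.4, and its Control PTZ45 libraries 112 and 119. Control PTZ45 lay above every other Control library but not above CBP-ifKO Sal replicate 1, at 122. In DESeq2 the log2 fold change over PTZ0 was 0.94 (SE 0.26, adjusted p 0.0237), and over Sal it was 0.53 (SE 0.25, p 0.0332, adjusted p 0.574). The call over PTZ0 was lost without any 1 of the PTZ0 libraries 1, 2 and 3 (0.95, 1.02 and 0.84, adjusted p 0.496, 0.0846 and 0.416). It did not hold either without Control PTZ45 replicate 1 (0.98) or replicate 2 (0.89), which leaves 1 PTZ45 library. The PTZ0 libraries were at 60.6 ± 7.82 (SD, n = 3) against 80.8 ± 13.3 (SD, n = 3) in Sal, a difference that was not called (log2 fold change -0.41, adjusted p 0.9998 by DESeq2). For the noncoding gene Gm26669, which overlaps Zfp36l1 on the other strand, no counts were available.

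For Zfp36l2 the Control Sal libraries held 66.2, 87.4 and 106 normalized counts, the Control PTZ0 libraries 81.6, 87.8 and 80.9, and the Control PTZ45 libraries 133 and 145. Control PTZ45 lay above all 15 other libraries, of which the highest, CBP-ifKO PTZ45 replicate 2, held 126. This order was found in 4.3% of 17367 genes. The log2 fold change was 0.68 over Sal (SE 0.24, p 0.00538, adjusted p 0.229 by DESeq2) and 0.73 over PTZ0 (SE 0.22, p 0.00112, adjusted p 0.0782 by DESeq2). The antisense gene AC132455.1, which overlaps Zfp36l2, had 0 to 10 counts per library. The value over PTZ0 was called by the edgeR quasi-likelihood test (0.73, adjusted p 0.0131). Among all genes tested, every PTZ45 library lay above every Sal library in 16.7% and above every PTZ0 library in 17.6%, as it did for all 3 members.

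In CBP-ifKOs the Zfp36l1 libraries held 122, 95.5 and 68.0 in Sal, 80.4, 75.4 and 66.2 in PTZ0, and 84.1, 99.96 and 74.3 in PTZ45. The Zfp36l2 libraries held 109, 99.6 and 76.1 in Sal, 67.0, 91.6 and 84.4 in PTZ0, and 88.3, 126 and 119 in PTZ45. PTZ45 overlapped both other treatments for all 3 members. The log2 fold changes from Sal to PTZ45 were 0.03 for Zfp36 (95% interval -0.91 to 0.97), -0.15 for Zfp36l1 (-0.65 to 0.36) and 0.23 for Zfp36l2 (-0.22 to 0.68), and none was called by DESeq2, where 0.294% of 19757 genes were called in either direction. From PTZ0 to PTZ45, within lane 5, they were 0.49 (-0.54 to 1.51), 0.23 (-0.23 to 0.69) and 0.45 (0.00467 to 0.89), again with no call, where 0.0872% of 26374 genes were called. At an unadjusted p under 0.05 Zfp36l2 passed in the latter comparison (p 0.0476) and no other member did in either.

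By mean, the order for Zfp36l1 was Control PTZ45 (116 ± 5.09, SD, n = 2), CBP-ifKO Sal (95.1 ± 26.9, SD, n = 3), CBP-ifKO PTZ45 (86.1 ± 12.96, SD, n = 3), Control Sal, CBP-ifKO PTZ0 (74.0 ± 7.17, SD, n = 3) and Control PTZ0, and each group overlapped its neighbours. For Zfp36l2 it was Control PTZ45 (139 ± 8.38, SD, n = 2), CBP-ifKO PTZ45 (111 ± 20.0, SD, n = 3), CBP-ifKO Sal (94.9 ± 16.9, SD, n = 3), Control Sal (86.5 ± 19.8, SD, n = 3), Control PTZ0 (83.5 ± 3.80, SD, n = 3) and CBP-ifKO PTZ0 (81.0 ± 12.7, SD, n = 3). Here only Control PTZ45 stood clear of the next group.

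Kindling alone, 1 week after its end, was read from PTZ0 against Sal. In Controls, within lane 3, the log2 fold changes were 0.25 for Zfp36 (95% interval -0.61 to 1.10), -0.41 for Zfp36l1 (-0.87 to 0.0508) and -0.0474 for Zfp36l2 (-0.48 to 0.39), and in CBP-ifKOs they were -0.46, -0.37 and -0.22. No member was called by DESeq2 in either genotype or passed an unadjusted p under 0.05, and of all genes 0.00843% of 35602 were called in Controls and 0.0112% of 35705 in CBP-ifKOs.

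The next question was whether the levels differ between genotypes. The paper reports that seizures came to appear in all Controls during kindling, whereas no CBP-ifKO mouse reached that stage. In kindled mice, loss of CBP and absence of seizures therefore cannot be told apart. In the PTZ45 groups Zfp36 was 3.32-fold lower in CBP-ifKOs than in Controls (log2 fold change -1.73, SE 0.41, adjusted p 0.00163 by DESeq2), where 2.82% of 15224 genes were called lower. Every CBP-ifKO PTZ45 library lay below both Control PTZ45 libraries for all 3 members, as it did for 18.3% of genes, but Zfp36l1 (-0.42, SE 0.25, adjusted p 0.588) and Zfp36l2 (-0.32, SE 0.24, adjusted p 0.735) were not called. The Zfp36 call was lost without Control PTZ45 replicate 1 (-1.44, adjusted p 0.569) and without CBP-ifKO PTZ45 replicate 1 (-1.47, adjusted p 0.0543). The genotypes were on different lanes here, as in Sal and PTZ0, so genotype and lane cannot be told apart in any treatment. In the same comparison 3 of 4 markers of CA1 pyramidal cells were called lower, their summed level running from 3864 to 4535 in Control PTZ45 and from 2684 to 2906 in CBP-ifKO PTZ45 with none at 0. Of 5 markers of dentate granule cells, C1ql2 (-1.72) and Tdo2 (-1.14) were called lower and Lct (0.63) higher. The part of these markers in the Zfp36 result was not tested. The CA1 sums did not overlap in the Sal groups either (4063 to 4678 and 2654 to 3501), where Zfp36 had a log2 fold change of 0.43 (95% interval -0.51 to 1.36).

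The interaction of genotype and treatment tests the difference between the responses directly. For Zfp36 it was -2.15 over Sal (SE 0.59, p 2.37e-04, adjusted p 0.0690 by DESeq2), which was not called, and -1.48 over PTZ0 (SE 0.61, p 0.0143, adjusted p 1.0), where 0.423% of 19370 genes were called. Over Sal 0.329% of 20945 genes were called and Zfp36 ranked 72nd by p, behind the 69 genes called. It was called without CBP-ifKO Sal replicate 3 (-2.50, adjusted p 0.00799) and without CBP-ifKO PTZ45 replicate 2 (-2.45, adjusted p 0.0410). For Zfp36l1 the interactions were -0.67 (p 0.0523) and -0.71 (p 0.0245), and for Zfp36l2 -0.45 (p 0.163) and -0.28 (p 0.333), and each adjusted p by DESeq2 was 1.0. All 6 estimates were negative, but they share libraries and none passed the test.

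Outside the PTZ45 groups the members' levels were not called different between genotypes. In Sal the log2 fold changes of CBP-ifKO over Control were 0.43 for Zfp36, 0.24 for Zfp36l1 and 0.13 for Zfp36l2, and in PTZ0 they were -0.26, 0.29 and -0.0321. DESeq2 gave Zfp36 no adjusted p in these comparisons (p 0.371 and 0.605). Its value in Sal ran from 0.21 to 0.77 when single libraries were left out, and in PTZ0 from -0.77 without CBP-ifKO PTZ0 replicate 3 to 0.0930 without replicate 1, which turned its sign. Of all genes, 2.04% of 15004 were called in Sal and 6.68% of 12752 in PTZ0. Over all treatments together the values were -0.51 (95% interval -1.10 to 0.0811), 0.0550 (-0.22 to 0.33) and -0.0627 (-0.30 to 0.17), where 19.3% of 18682 genes were called by DESeq2 and none of the 3 members was.

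**Figure D2:**
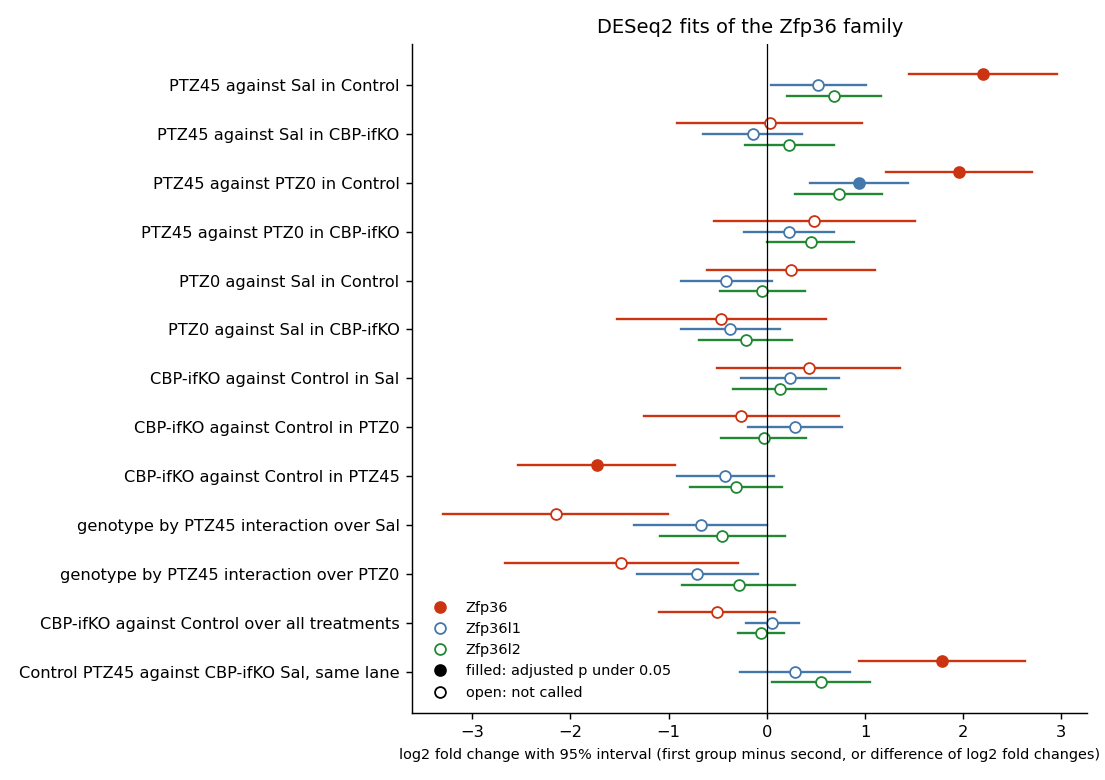
Log2 fold changes (x axis; for the interactions, differences of log2 fold changes) of the 3 members in the 13 comparisons with 95% intervals from DESeq2; filled points had an adjusted p under 0.05 and open points did not or had none. Zfp36 is filled in 4 comparisons, each of which has Control PTZ45 on one side, and Zfp36l1 in 1.

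Per kilobase of exons, which allows levels to be compared between genes, Zfp36 contributed the smallest part of the family in 17 of 17 libraries. The deposited exonic length of Zfp36 equals its whole span of 3470 bases, so that its level per kilobase is low beside that from its coding transcripts in GENCODE M21, of 2790 and 2465 bases. With these lengths, an alternative chosen after seeing the data, Zfp36 was still the lowest member in 17 of 17 libraries, though in Control PTZ45 replicate 1 it reached 36.2 with the shorter transcript, against 37.6 for each paralogue. In Control Sal it stood at 4.75 ± 0.171 normalized counts per kilobase, Zfp36l1 at 27.02 ± 4.46 and Zfp36l2 at 24.5 ± 5.61 (SD, n = 3 each). In Control PTZ45 these levels were 21.8 ± 5.58, 38.8 ± 1.70 and 39.3 ± 2.37 (SD, n = 2 each). The summed level of the family was 56.3 ± 9.71 (SD, n = 3) in Control Sal, 49.5 ± 3.74 (SD, n = 3) in Control PTZ0 and 99.8 ± 1.504 (SD, n = 2) in Control PTZ45, against 65.3 ± 16.1, 52.3 ± 4.23 and 66.8 ± 10.6 (SD, n = 3 each) in the CBP-ifKO groups. Zfp36 made up 8.66% ± 1.91, 11.3% ± 1.99 and 21.8% ± 5.26 of the sum in the Control Sal, PTZ0 and PTZ45 groups and 9.90% ± 2.93, 8.57% ± 4.98 and 9.58% ± 2.38 in the CBP-ifKO groups. With the shorter transcript these shares were 11.8%, 15.2% and 28.1% in Controls and 13.4%, 11.6% and 12.96% in CBP-ifKOs. The family sum of both Control PTZ45 libraries, at 98.8 and 101, exceeded that of every other library, the highest of which was 79.1.

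**Figure D3:**
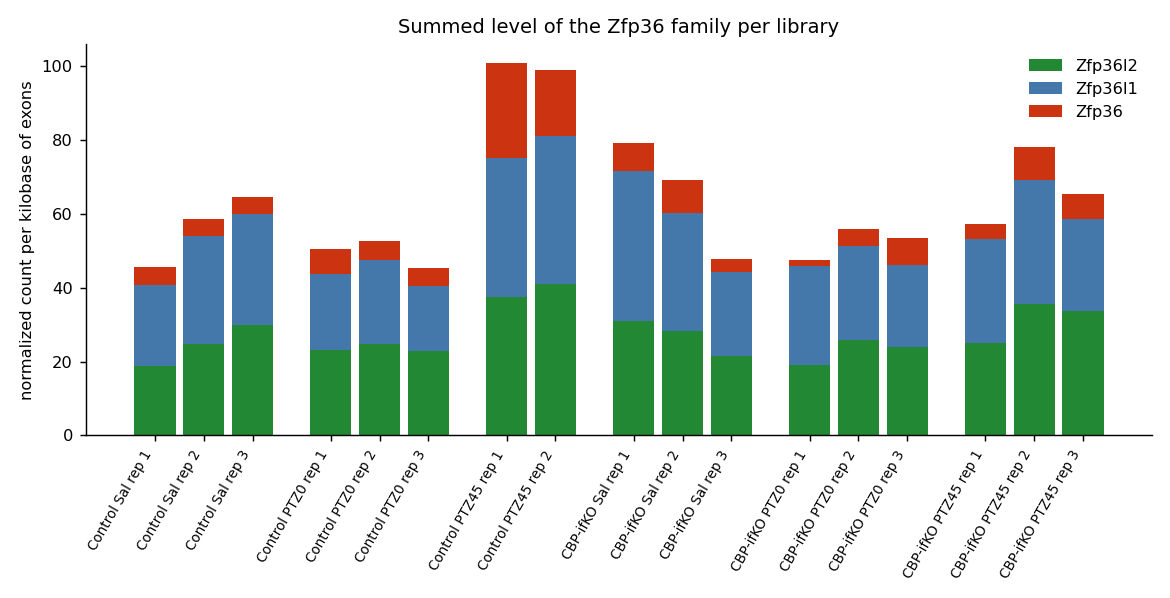
Normalized counts per kilobase of exons (y axis) summed over the 3 members, 1 bar per library, colored by member. The 2 Control PTZ45 bars reach 98.8 and 101, and their Zfp36 segments are the thickest of the 17 libraries.

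Ratios of members within a library depend on the scaling between libraries only through the pseudocount, most at low counts. The mean log2 ratio of Zfp36 to Zfp36l1 (pseudocount 1) was -2.21 in Control Sal, -1.60 in Control PTZ0 and -0.63 in Control PTZ45, and -2.06, -2.34 and -1.94 in the CBP-ifKO groups. The ratio to Zfp36l2 ran -2.30, -2.06 and -0.89 in Controls and -2.08, -2.46 and -2.29 in CBP-ifKOs. With libraries exchanged within genotype, PTZ45 exceeded the other treatments by 0.77 for Zfp36 to Zfp36l1 and by 0.63 for Zfp36 to Zfp36l2 on average over genotypes (exact two-sided permutation test over 2352 arrangements, p 0.0353 and 0.0472, adjusted p 0.0472 for both). The differences were 1.27 and 1.29 in Controls and 0.27 and -0.0216 in CBP-ifKOs, and this test does not compare the genotypes. The first ratio missed the threshold when any 1 of 5 libraries was left out (CBP-ifKO Sal 3, Control PTZ45 1 and 2, CBP-ifKO PTZ45 2 and 3), with differences of 0.62 to 0.92. The second missed it without any 1 of 12 libraries, at 0.47 to 0.80, and passed it only without Control PTZ0 1 or CBP-ifKO Sal 1 or 2, PTZ0 3 or PTZ45 1.

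Genes of the decay machinery were read from lists. A list of 15 genes of the deadenylases, the enzymes to which the family leads its targets, also held Pabpc1, the cytoplasmic poly(A)-binding protein. From Sal to PTZ45 in Controls, where 1.17% of all genes were called in either direction, none of the deadenylase genes proper was called and Pabpc1 was, with 634 ± 65.1 normalized counts (SD, n = 3) in Sal and 890 ± 66.7 (SD, n = 2) in PTZ45 (log2 fold change 0.49, adjusted p 0.00595 by DESeq2). Of 28 decapping, exonuclease and exosome genes, which degrade the mRNA after deadenylation, 27 had an adjusted p and 0 were called, as was also the case for 13 tested genes of 14 encoding other RNA-binding proteins. Counts of 0 or 1 in lists of this size are near that share. The medians of these lists were 0.0605, -0.0207 and 0.0638 on the log2 scale, beside 0.00558 over all genes tested. Over PTZ0, where 1.25% of all genes were called in either direction, 1 gene of each of the deadenylase and RNA-binding lists and 2 of the 14 regulators were called. Pabpc1 (0.53, adjusted p 1.929e-05), Hnrnpd, which encodes the AU-rich element binding protein AUF1 (0.26, adjusted p 0.0488), and Ywhae, a 14-3-3 protein (0.22, adjusted p 0.0318), were called by DESeq2, and the other regulator was Dusp1. In CBP-ifKOs no gene of these lists was called in either comparison except Dusp1, described next.

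Of 14 kinases, phosphatases and 14-3-3 proteins that act on the family's proteins, Dusp1, a phosphatase that inactivates p38 MAPK and is itself a known target, was called in both genotypes. It stood at 88.7 ± 21.1, 96.7 ± 11.5 and 649 ± 44.5 normalized counts in the Control Sal, PTZ0 and PTZ45 groups (SD, n = 3, 3 and 2) and at 68.2 ± 9.77, 58.3 ± 0.988 and 190 ± 48.4 (SD, n = 3 each) in the CBP-ifKO groups. Its log2 fold change from Sal to PTZ45 was 2.84 (SE 0.17, adjusted p 9.154e-57 by DESeq2) in Controls and 1.45 (SE 0.23, adjusted p 9.269e-07) in CBP-ifKOs. The interaction was -1.40 (SE 0.29, adjusted p 6.18e-04).

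Of 22 mRNAs known as targets of the family, 11 had an adjusted p from Sal to PTZ45 in Controls, and 3 were called, all higher, beside 0.939% of all genes called higher: Fos, Ptgs2 and Dusp1, whose elements are printed above. Fos, a subunit of AP-1, stood at 39.6 ± 19.7 normalized counts (SD, n = 3) in Control Sal and 2699 ± 306 (SD, n = 2) in Control PTZ45, which DESeq2 gave as 6.08 on the log2 scale (SE 0.48, adjusted p 4.214e-34). Ptgs2, which encodes cyclooxygenase 2, went from 389 ± 3.87 (SD, n = 3) to 1994 ± 395 (SD, n = 2), or 2.35 on the log2 scale by DESeq2 (SE 0.12, adjusted p 6.577e-76). In CBP-ifKOs the same 3 genes were called among 12, beside 0.294% of all genes, with log2 fold changes of 2.91 for Fos, 0.59 for Ptgs2 and 1.45 for Dusp1. Over PTZ0, on the same lane, Fos (4.03) and Dusp1 (1.70) were called by DESeq2 and Ptgs2 (0.37, adjusted p 0.646) was not. The interactions over Sal were called for each of them, at -3.18 for Fos, -1.77 for Ptgs2 and -1.40 for Dusp1. These 3 genes are also immediate-early genes. DESeq2 gave no adjusted p to the other 11, which had few counts. Among them the cytokine Il1b averaged 10.1 normalized counts in Control PTZ45 and 2.72 in Control Sal (p 0.0486 by DESeq2, unadjusted). The chemokine Ccl3 averaged 11.1 and 3.84 (p 0.0864, unadjusted). Neither overlapped, as was found in 16.7% of all genes tested. Lif went the other way, at 5.51 in Control PTZ45 and 10.2 in Control Sal. The interactions of Il1b and Ccl3 over Sal were -2.18 and -3.12 (p 0.1525 and 0.0618 by DESeq2, unadjusted). Over PTZ0 they were -3.88 and -5.37 (p 0.00803 and 0.00280, unadjusted). None of these interactions had an adjusted p. Il2, Il10, Cxcl1 and Cxcl2 averaged under 3 in both groups.

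**Figure D4:**
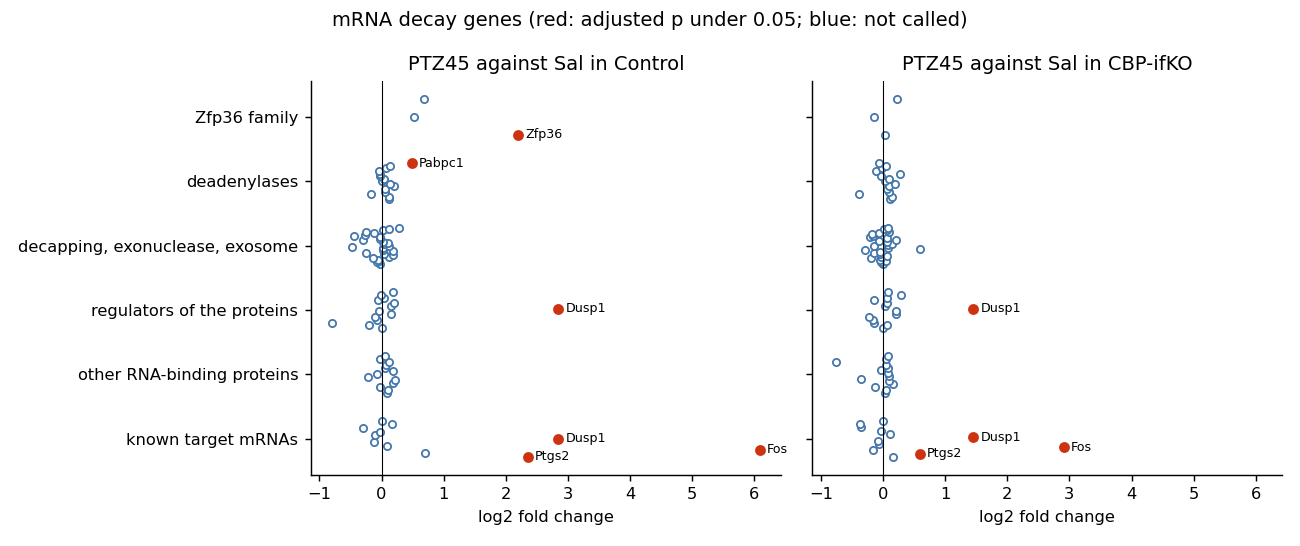
Log2 fold changes (x axis) from Sal to PTZ45 of the family and of 5 lists of mRNA decay genes in Controls (left) and CBP-ifKOs (right), for genes with an adjusted p; red points were called by DESeq2 and are named, blue points were not. Zfp36, at 2.20 in Controls and 0.03 in CBP-ifKOs, is red on the left only, while Fos, Ptgs2 and Dusp1 are red on both sides.

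Over all treatments, genotype was called in more of these genes. Because the genotypes were on different lanes in every treatment, genotype and lane cannot be told apart in these values. Of the 14 regulators of the family's proteins, 9 were called lower and 1 higher in CBP-ifKOs, against 11.5% and 7.76% of all 18682 genes tested. The 9 included 5 of 6 genes for 14-3-3 proteins, Ywhab (-0.18), Ywhag (-0.16), Ywhah (-0.12), Ywhaq (-0.26) and Ywhaz (-0.12), and Mapk14, which encodes p38 alpha (-0.16), Mapkapk2, which encodes the p38-activated kinase MK2 (-0.18), Ppp2ca, a catalytic subunit of phosphatase 2A (-0.13), and Dusp1 (-0.94). The gene called higher was Rps6ka1, which encodes the kinase RSK1 (0.25). Of 14 genes for other RNA-binding proteins, Elavl2 (-0.17) and Pum2 (-0.11) were called lower and Tia1 (0.11) higher. Of the targets, 11 of 22 had an adjusted p and 4 were called lower, namely Fos (-1.53), Ptgs2 (-0.94), Dusp1 and Ccnd1, which encodes cyclin D1 (-0.44). Of the deadenylases 3 of 15 were called higher, namely Cnot1 (0.0907), Cnot3 (0.29) and Cnot10 (0.11), and of the decapping, exonuclease and exosome genes 4 of 28, namely Dcp1a (0.22), Dcp1b (0.19), Xrn1 (0.16) and Exosc7 (0.20). Apart from Dusp1, Fos, Ptgs2 and Ccnd1, the changes named here were at most 0.29 in size on the log2 scale. In the same fit DESeq2 called lower 4 of 4 markers of CA1 pyramidal cells, 2 of 4 of CA3 pyramidal cells (1 of them Elavl2, counted above among the RNA-binding proteins), 2 of 6 of interneurons, 3 of 6 of astrocytes and 1 of 5 of mural cells, while of 5 markers of dentate granule cells 2 were called lower and 2 higher. Several of these shifts, such as Slc1a3 in astrocytes (-0.18) and Gad1 in interneurons (-0.14), were of the size of those of the 14-3-3 genes, and their part in these values was not tested.

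The genes with a pattern most like each member were found over the 17 libraries by the root mean square difference of log2(normalized count + 1), each gene centered on its Control Sal mean, over the 15835 genes that averaged 20 normalized counts or more. For Zfp36 the nearest was Ppp1r15a, which encodes the stress-induced phosphatase subunit GADD34, at a distance of 0.45. It stood at 84.96 normalized counts in Control Sal and 388 in Control PTZ45, and at 89.7 and 104 in CBP-ifKO Sal and PTZ45. The next were Gm45902, Gm43361, Gm37824 and Gm37868, gene models with no assigned function here, at 0.50 to 0.53. For Zfp36l1 the nearest were Gm48958 (0.18) and the mitochondrial genes mt-Nd2 (0.20) and mt-Nd5 (0.20). For Zfp36l2 they were Tob1 (0.18), an antiproliferative protein that binds the CCR4-NOT complex, Ddx3x (0.19), an RNA helicase, and Isca1 (0.19), an iron-sulfur cluster assembly factor. The genes were chosen for this likeness, so no test of it is given.

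**Figure D5:**
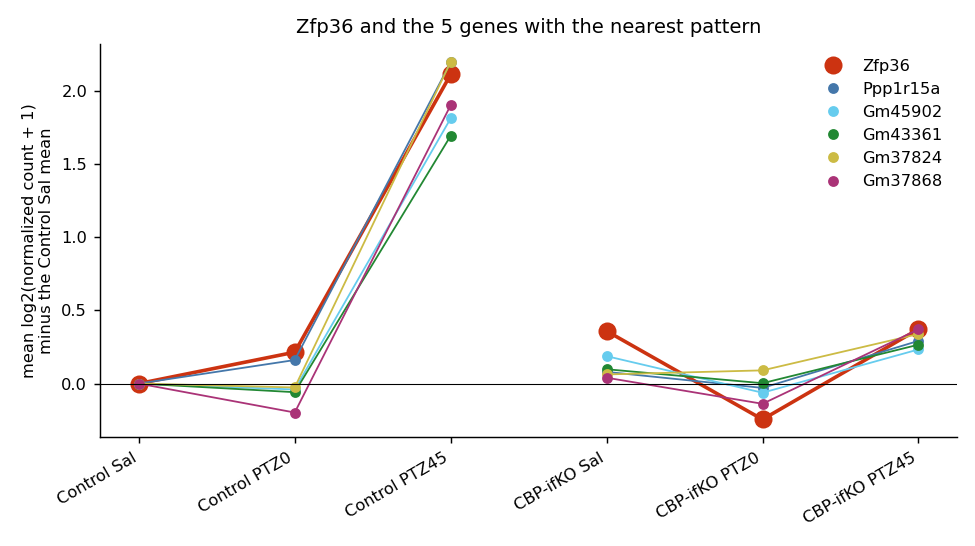
Mean log2(normalized count + 1) minus the Control Sal mean (y axis) of Zfp36 and the 5 genes with the nearest pattern in the 6 groups; lines join the groups of a genotype. All 6 genes stand between 1.69 and 2.20 in Control PTZ45 and at most at 0.37 in the CBP-ifKO groups.

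Zfp36l3, a further family gene known from rodent placenta, had 2 counts in the 17 libraries together and was not examined further.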

How the data were processed

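Total RNA from the hippocampus was sequenced as single-end reads of 50 bases. The authors trimmed the reads with Trim Galore 0.6.4, aligned them with STAR 2.6.1 to GRCm38, kept reads with a mapping quality above 10, counted them on Ensembl exons with Rsubread and deposited raw counts per gene, with an exonic length beside them. Strand use is not given in the sources used here, so reads of overlapping antisense genes cannot be told apart. Of 18 columns of counts, 1, named like those of Control PTZ45, matched no sample and was not used. The methods describe the Sal libraries as single mice, and elsewhere p-values measure the spread between libraries only.

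The main test was the two-sided Wald test of DESeq2 1.42.0 in R 4.3.3 on the counts of the groups compared, with Benjamini-Hochberg adjustment over all genes with independent filtering. A gene was called at an adjusted p under 0.05. Normalized counts are counts divided by DESeq2 size factors of 1 scaling over all 17 libraries. The fit was also run on simulated data with the same dispersion for every gene and no lane effect, a setting that does not bear on the Zfp36 calls. Alternatives were the edgeR 4.0.16 quasi-likelihood test, TMM size factors, a filter of 10 counts in 2 libraries, 1 fit of all libraries, a GC correction (loess, span 0.5), a block for the replicate number, and omission of single libraries.

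The text names the members, Crebbp and Esr1, called genes of 5 lists, and the nearest 5 genes (Zfp36) or 3 genes (paralogues) by pattern. Members and lists were chosen with earlier results of these data known. The search for UAUUUAU, in GENCODE M21 transcripts, was chosen after the data were seen. Promoter sequences are from RefSeq, where 2 of the 3 members matched.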

Additional observations from a re-analysis of the deposited data

How the results depend on the processing

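The log2 fold change of Zfp36 kept its call in 9 of the 10 alternatives that gave an adjusted p from Sal to PTZ45 in Controls (2.18 to 2.43) and in 9 of 10 from PTZ0 to PTZ45 (1.86 to 2.19). The exception was the replicate block. Correlations between same-numbered libraries ran from -0.52 to 0.53, and 7 of 17 libraries correlated best with one of their own number. The share expected by chance was not tested, so these values do not decide whether same-numbered libraries share more than a number. The column of counts of Control PTZ45 replicate 2 carries a different number in its name. The block and the correlations used its replicate number. The block took the genes called over Sal in Controls from 204 to 73, and in PTZ45 between genotypes from 468 to 102, beside 785 in 1 fit of all libraries. With the replicate block Zfp36 was at 2.18 over Sal (adjusted p 0.104 by DESeq2), 1.87 over PTZ0, -1.82 for CBP-ifKO against Control in PTZ45 and 1.41 for Control PTZ45 against CBP-ifKO Sal, and Zfp36l1 over PTZ0 was at 0.84. The ratios of Zfp36 were then 0.75 to Zfp36l1 and 0.58 to Zfp36l2, and all of these missed the threshold. The ratios also missed it against PTZ0 alone (0.68 and 0.67) and Sal alone (0.85 and 0.60), and the second with a pseudocount of 5 (0.52). Zfp36l2 from PTZ0 to PTZ45 in Controls was called by edgeR (0.73) and with the GC correction (0.83), as was the Zfp36 interaction over Sal with the GC correction (-2.18). Zfp36l2 in CBP-ifKO against Control in PTZ0 changed sign with that correction (0.0235). The cause of these shifts was not tested.

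Leaving out single libraries gave Zfp36 -2.03 to -1.44 for CBP-ifKO against Control in PTZ45, -2.50 to -1.87 for the interaction over Sal, 1.43 to 2.01 for Control PTZ45 against CBP-ifKO Sal and -0.31 to 0.29 from Sal to PTZ45 in CBP-ifKOs. Zfp36l1 ranged from 0.84 to 1.02 from PTZ0 to PTZ45 in Controls, -0.36 to 0.12 from Sal to PTZ45 in CBP-ifKOs, and for genotype -0.0219 to 0.45 in Sal and -0.0505 to 0.12 over all treatments. Zfp36l2 ranged from -0.0854 to 0.13 from Sal to PTZ0 in Controls, and for genotype -0.0387 to 0.31 in Sal and -0.13 to 0.0778 in PTZ0. From PTZ0 to PTZ45 in CBP-ifKOs Zfp36 ranged from 0.128 to 1.003 and Zfp36l1 from 0.10 to 0.32. From Sal to PTZ0 Zfp36 ranged from 0.0715 to 0.33 in Controls, and in CBP-ifKOs the members ranged from -0.98 to -0.0992, -0.58 to -0.10 and -0.37 to -0.0750. The interactions ranged from -1.83 to -0.97 for Zfp36 over PTZ0, -0.89 to -0.40 for Zfp36l1 over Sal, and -0.63 to -0.28 over Sal and -0.39 to -0.14 over PTZ0 for Zfp36l2. The values whose range crosses 0 were not called in any alternative that gave an adjusted p. The ratios ran from 0.62 to 0.92 and from 0.47 to 0.80. Where 1 Control PTZ45 library is left, its spread is assumed to be that of the other group. Zfp36 had 5 to 41 counts in every library but those of Control PTZ45. In comparisons without Control PTZ45, differences of Zfp36 as small as those of Zfp36l1 and Zfp36l2 in Controls may have been missed. The smallest difference that could be called was not tested.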
